A study of Mus musculus with 23 samples.

Results

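The lymphoid priming genes described here are 9 genes, taken by symbol from a table of 24454 genes, and all 9 were found. They are Flt3, Il7r, Notch1 and Ccr9, which encode surface receptors, Ltb, which encodes a ligand, Ikzf1 and Satb1, which encode nuclear regulators, Dntt, which encodes a polymerase, and Lsp1, which encodes a cytoskeletal protein. They were read in stem and progenitor cells sorted from the marrow of C57BL/6 mice of 2 genotypes, SclCre;V617F (SF1), called V617F here, and Wildtype (WT). Both genotypes received tamoxifen for 5 days and were killed for marrow after a further 12 weeks. V617F is a constitutively active form of the kinase JAK2, and the Cre recombinase that switches it on is driven by regulatory sequence of Scl (Tal1), a gene of stem and progenitor cells. The 8 groups were V617F and WT CD41-positive HSC, V617F and WT CD41-negative HSC, V617F and WT megakaryocyte progenitors (MkP), and V617F and WT long-term HSC (LT-HSC). Each had 3 libraries, except WT CD41-positive HSC, which had 2. Whether a library came from 1 mouse or from pooled mice was not given in the sources used here, so p-values measure the spread between libraries, which may be in part technical.

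The HSC gate took cells free of lineage markers and CD48 that carried Kit, Sca-1 and CD150, and the CD41 fractions divide that gate. The MkP gate took cells free of lineage markers and Sca-1 that carried Kit, CD150 and CD41. The CD41 fractions were made into libraries with SMART-Seq v4 and the LT-HSC and MkP with SMART-Seq v2, so protocol and population cannot be told apart and no value was compared across protocols. All V617F LT-HSC came from males and all WT LT-HSC from females, so sex and genotype cannot be told apart there. All MkP libraries were from females, so sex and population cannot be told apart between V617F MkP and V617F LT-HSC, and in the CD41 fractions the V617F libraries of number 2 were from males and the others from females.

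Lymphoid priming is the low-level transcription of lymphoid genes in cells that are still multipotent. FLT3, a receptor tyrosine kinase, marks multipotent progenitors that have moved away from the stem cell state and retain lymphoid potential, and the interleukin-7 receptor marks later lymphoid progenitors. Notch1 signalling directs progenitors to the T lineage, and CCR9 guides them to the thymus. Ikaros, the product of Ikzf1, and the chromatin organiser SATB1 take part in setting up the lymphoid programme, and terminal transferase, the product of Dntt, adds untemplated bases to rearranging antigen receptor genes. CD41, encoded by Itga2b, is a megakaryocyte integrin that also marks a megakaryocyte-biased part of the stem cell compartment.

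The promoters of Ltb, Notch1, Flt3 and Dntt are shown because these were the members that passed the test between genotypes in at least 1 population. RefSeq entries of build GRCm38.p6 were found for 8 of the 9 members, and each spans 250 bases before and 50 after a transcription start, written 5′ to 3′ on the gene's strand. Those shown are chr17:35194257-35194556 (plus strand) for Ltb, chr2:26503773-26504072 (minus strand) for Notch1, chr5:147400440-147400739 (minus strand) for Flt3 and chr19:41029025-41029324 (plus strand) for Dntt. Capitals mark matches, on either strand, to TTCNNNGAA (the STAT letters), GGG and CC with any 5 bases between them (the NF-kappaB letters) or AGGAAG (ETS).
Ltb: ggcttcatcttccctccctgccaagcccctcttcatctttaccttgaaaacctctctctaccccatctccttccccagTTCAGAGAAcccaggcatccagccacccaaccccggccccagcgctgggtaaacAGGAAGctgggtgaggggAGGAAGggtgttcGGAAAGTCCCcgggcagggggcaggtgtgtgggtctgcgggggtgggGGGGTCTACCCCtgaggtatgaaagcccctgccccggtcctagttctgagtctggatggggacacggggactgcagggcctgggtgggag
Notch1: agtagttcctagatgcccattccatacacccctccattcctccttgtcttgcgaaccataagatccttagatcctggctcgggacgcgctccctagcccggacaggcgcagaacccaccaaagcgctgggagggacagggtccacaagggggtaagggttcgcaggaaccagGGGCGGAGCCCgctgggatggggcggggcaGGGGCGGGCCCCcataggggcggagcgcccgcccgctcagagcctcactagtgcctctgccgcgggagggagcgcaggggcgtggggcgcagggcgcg
Flt3: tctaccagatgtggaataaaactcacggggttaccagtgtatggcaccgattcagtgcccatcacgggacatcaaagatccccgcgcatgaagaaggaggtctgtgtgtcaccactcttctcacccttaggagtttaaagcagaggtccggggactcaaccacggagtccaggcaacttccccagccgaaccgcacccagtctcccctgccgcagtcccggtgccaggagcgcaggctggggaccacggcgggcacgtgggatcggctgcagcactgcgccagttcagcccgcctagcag
Dntt: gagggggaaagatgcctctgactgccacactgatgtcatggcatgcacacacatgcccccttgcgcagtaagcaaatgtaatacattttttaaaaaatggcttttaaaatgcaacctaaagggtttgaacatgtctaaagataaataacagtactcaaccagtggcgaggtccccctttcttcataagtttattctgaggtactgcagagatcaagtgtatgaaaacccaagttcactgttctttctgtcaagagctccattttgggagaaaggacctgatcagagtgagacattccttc
The Ltb promoter held 1 STAT match, 4 NF-kappaB matches, some of which overlap each other, and 2 ETS matches. The Notch1 promoter held 5 NF-kappaB matches, which overlap and merge into a pair of stretches, and the Flt3 and Dntt windows held none of the 3 motifs. Among all 32851 promoter entries, 8.3% held the STAT letters, 50.8% the NF-kappaB letters and 35.4% the ETS letters. Among the 13 entries of the members, 3, 8 and 6 held them, in that order of motifs. A match is a description of the letters and not of a bound site.

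Libraries held 17.6 to 49.2 M counts, with a median of 22.2 M. Levels are given as CPM, counts per M of the library total scaled by TMM. Comparisons are given as log2 fold changes with a p adjusted over all genes tested, from edgeR's quasi-likelihood test with a threshold of 0.05. The standard error (SE) beside them is the absolute log2 fold change divided by the square root of the test's F statistic. It is an approximation derived from the test, not a separately estimated error. Of the 9 members, 8 passed the filter on low counts in each protocol and Il7r did not. The sorts matched their labels for CD41, with Itga2b at 611 to 743 CPM in V617F and 794 to 916 CPM in WT CD41-positive HSC, against 96.4 to 136 CPM in V617F and 148 to 232 CPM in WT CD41-negative HSC. Jak2, the mutated gene, stood at 65.6 to 106.5 CPM in V617F LT-HSC against 14.5 to 36.5 CPM in WT (log2 1.73, SE 0.39, adjusted p = 0.149) and at 101.5 to 128 CPM in V617F MkP against 35.8 to 46.4 CPM in WT (log2 1.46, SE 0.38, adjusted p = 0.0757), without overlap but not called. Its genotypes overlapped in both CD41 fractions, and counts per gene do not show the mutated base. V617F LT-HSC and MkP libraries had counts in 14634 to 15697 genes, more than the 11483 to 13805 genes of WT LT-HSC and MkP libraries, at 17.6 to 33.8 M counts against 30.9 to 49.2 M in WT. The annotated spans of 6 of the 9 members overlap a non-coding RNA gene, and since the use of strand in counting was not given in the sources used here, their reads may include some of that partner's.

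Per kb of transcript, the members kept nearly the same order in both genotypes of CD41-negative HSC. In V617F CD41-negative HSC, Ltb stood at 99.8 and Lsp1 at 89.5 CPM per kb with overlapping ranges, followed by Flt3 at 26.7, Ikzf1 at 17.4, Notch1 at 3.71, Satb1 at 2.10 and Dntt at 0.553 CPM per kb. In WT CD41-negative HSC, Ltb stood at 162, Lsp1 at 92.2, Ikzf1 at 19.6, Flt3 at 16.3, Notch1 at 7.17, Satb1 at 2.66 and Dntt at 0.382 CPM per kb, and no neighbours among these overlapped. Flt3 and Ikzf1 thus stood in opposite orders in the 2 genotypes. Ccr9 and Il7r were lowest in both.

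**Figure D1:**
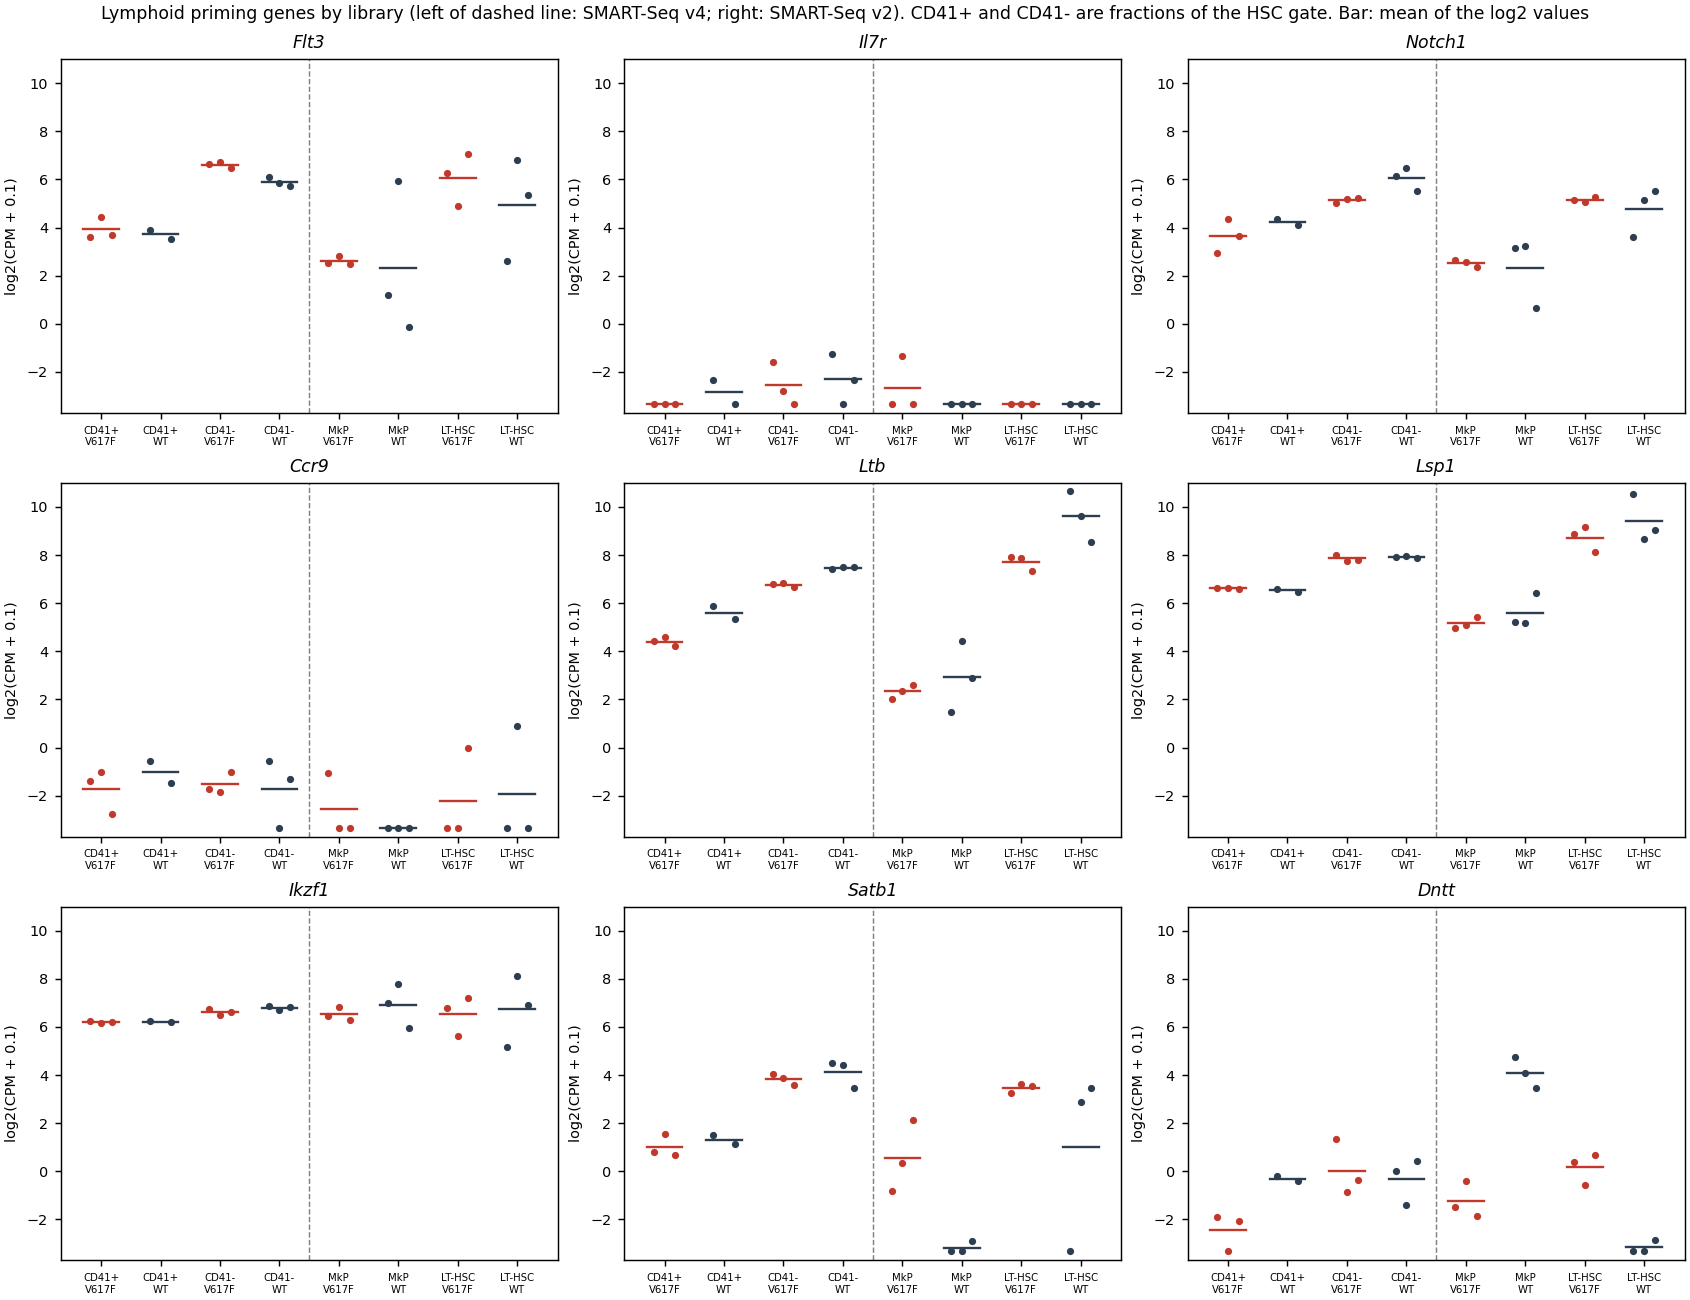
Level of each lymphoid priming gene in each of the 23 libraries, as log2(CPM + 0.1), with V617F in red left of WT in dark blue for each population, SMART-Seq v4 libraries left of the dashed line and v2 libraries right of it. Points are libraries and bars the mean of the log2 values. Il7r does not exceed 0.319 CPM and Ccr9 does not exceed 1.76 CPM in any library, and Dntt is highest in WT MkP.

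In CD41-negative HSC, V617F went with more Flt3 and with less Ltb and Notch1, and the other 5 members tested did not pass. These 3 of 8 calls stand beside 13.4% of all genes called in this comparison, 5.48% higher and 7.94% lower. The same 3 members did not overlap between genotypes, 1 higher and 2 lower, as did 30.3% of all genes, 16% higher and 14.3% lower. The median log2 fold change was -0.18 over the members and -0.01 over all genes. In such bulk libraries, fewer cells of a type and less RNA per cell cannot be told apart.

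Flt3 (Entrez 14255, chr5:147330741-147400489, GRCm38.p6) had 101, 104 and 88.3 CPM in V617F CD41-negative HSC, against 67.7, 57.9 and 52.7 CPM in WT. All V617F libraries were above all WT libraries, a 1.64-fold difference (log2 0.72, SE 0.20, adjusted p = 0.0373). Notch1 (Entrez 18128, chr2:26457902-26503822) had 31.98, 36.6 and 36.9 CPM in V617F, against 69.9, 87.8 and 46.4 CPM in WT. The V617F libraries were close together and below the spread-out WT libraries, with a log2 fold change of -0.95 (SE 0.29, adjusted p = 0.0465).

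Ltb (Entrez 16994, chr17:35194507-35196305), whose product lymphotoxin beta is a membrane ligand of the TNF superfamily used by lymphocytes to organise lymphoid tissue, had 112, 115 and 101 CPM in V617F CD41-negative HSC. In WT it had 170, 183 and 181 CPM. The groups were well apart, each with a narrow spread, and the log2 fold change was -0.70 (SE 0.14, adjusted p = 0.0133).

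The calls in this fraction were near the threshold. Without V617F library 3, Ltb was at an adjusted p of 0.0604, and Flt3 and Notch1 were no longer called when any 1 of the 3 V617F libraries or of WT libraries 1 and 3 was left out, with log2 fold changes between 0.64 and 0.80 for Flt3 and between -1.17 and -0.73 for Notch1 over all 6 omissions and adjusted p-values up to 0.113 and 0.169. Without the male libraries, Flt3 was at an adjusted p of 0.0567 and Notch1 at 0.0806, and in a fit of only these groups Notch1 was at 0.0589.

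The members that did not pass had adjusted p-values between 0.203 for Ikzf1 and 0.892 for Ccr9. Lsp1 (Entrez 16985, chr7:142458223-142494868), an F-actin binding protein of leukocytes, had 258, 218 and 224 CPM in V617F CD41-negative HSC and 241, 248 and 232 CPM in WT. Ikzf1 (Entrez 22778, chr11:11684962-11772930) had 106, 90.7 and 98.0 CPM in V617F and 117, 105 and 112 CPM in WT. Satb1 (Entrez 20230, chr17:51736187-51833290) had 16.3, 14.8 and 11.8 CPM in V617F and 22.3, 21.0 and 11.03 CPM in WT. The ranges of the genotypes overlapped for each of these.

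Genes around the members were read from fixed lists. Their counts in this fraction stand beside 13.4% of all genes called, 5.48% higher and 7.94% lower. Of 20 tested genes of lymphoid-primed multipotent progenitors, 6 were higher and none lower in V617F CD41-negative HSC, with a median log2 fold change of 0.28. They included Cd53, a leukocyte tetraspanin, at 170, 104 and 92.4 CPM in V617F against 11.8, 13.7 and 16.9 CPM in WT (log2 3.11, SE 0.29, adjusted p = 0.000199), and Plac8, at 214, 94.3 and 175 CPM against 17.3, 21.7 and 44.6 CPM (log2 2.53, SE 0.37, adjusted p = 0.00338). Cd48, whose product was gated out in the sort, was at 9.67, 6.21 and 8.69 CPM in V617F against 2.08, 1.37 and 2.42 CPM in WT (log2 2.06, adjusted p = 0.00735). Flt3 thus stood with several of these genes on the higher side in V617F.

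The shares called in the Notch and TNF lists were near the 13.4% of all genes called in this comparison, 5.48% higher and 7.94% lower. Of 28 tested genes of the Notch pathway other than Notch1, none was higher and 4 were lower in V617F CD41-negative HSC, with a median log2 fold change of -0.07. They were the ligands Jag2 (log2 -1.26, SE 0.23) and Dll1 (-2.16, SE 0.60), the receptor Notch2 (-0.64, SE 0.17) and Mfng (-1.36, SE 0.31), a Fringe glycosyltransferase that modifies Notch receptors. Of 15 tested genes around lymphotoxin and TNF, 1 had a positive log2 fold change, and only Nfkb2 (-0.83, SE 0.18), a subunit of the non-canonical NF-kappaB pathway that the lymphotoxin receptor uses, and Tnfrsf1b (-0.83, SE 0.19), a TNF receptor, passed, both lower. Of 13 tested genes of interleukin-7 receptor signalling, none was higher and 3 were lower, the survival gene Bcl2 (-0.72, SE 0.13), the TSLP receptor gene Crlf2 (-0.92, SE 0.23) and the kinase gene Jak3 (-0.73, SE 0.22). Ranges of the genotypes overlapped for Notch2, Mfng, Crlf2 and Jak3.

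Of 18 tested lymphoid transcription factors, Ikzf2 (log2 0.69, SE 0.18) and Tcf12 (0.32, SE 0.09) were higher and Foxo1 (-0.84, SE 0.21) and Sox4 (-0.83, SE 0.25) lower in V617F CD41-negative HSC. Ranges of the genotypes overlapped for Sox4. Of 11 tested genes of V(D)J recombination and end joining, Polm, a polymerase of the same family as Dntt, was lower (-1.24, SE 0.26) and none was higher. Markers of other cells moved with genotype in this fraction. Of 12 erythroid markers 8 were lower in V617F, of 8 tested macrophage markers 6 were lower and 1 higher, and of 10 megakaryocyte progenitor markers 3 were lower. Of 6 tested T and NK cell markers 1 was higher, Thy1, and 1 lower, Cd4. Of 5 tested dendritic cell markers 1 was lower, and of 10 stem cell gate markers 1 was higher and 2 lower. The summed erythroid level was 1717 to 1876 CPM in V617F and 1816 to 3958 CPM in WT, and the summed macrophage level 21.4 to 26.9 CPM in V617F and 24.6 to 27.7 CPM in WT. Their part in the results for the members was not tested. B cell markers summed to 40.4 to 47.8 CPM in V617F and 41.4 to 53.1 CPM in WT, with no member called and Pax5 at 0 in every V617F library.

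**Figure D2:**
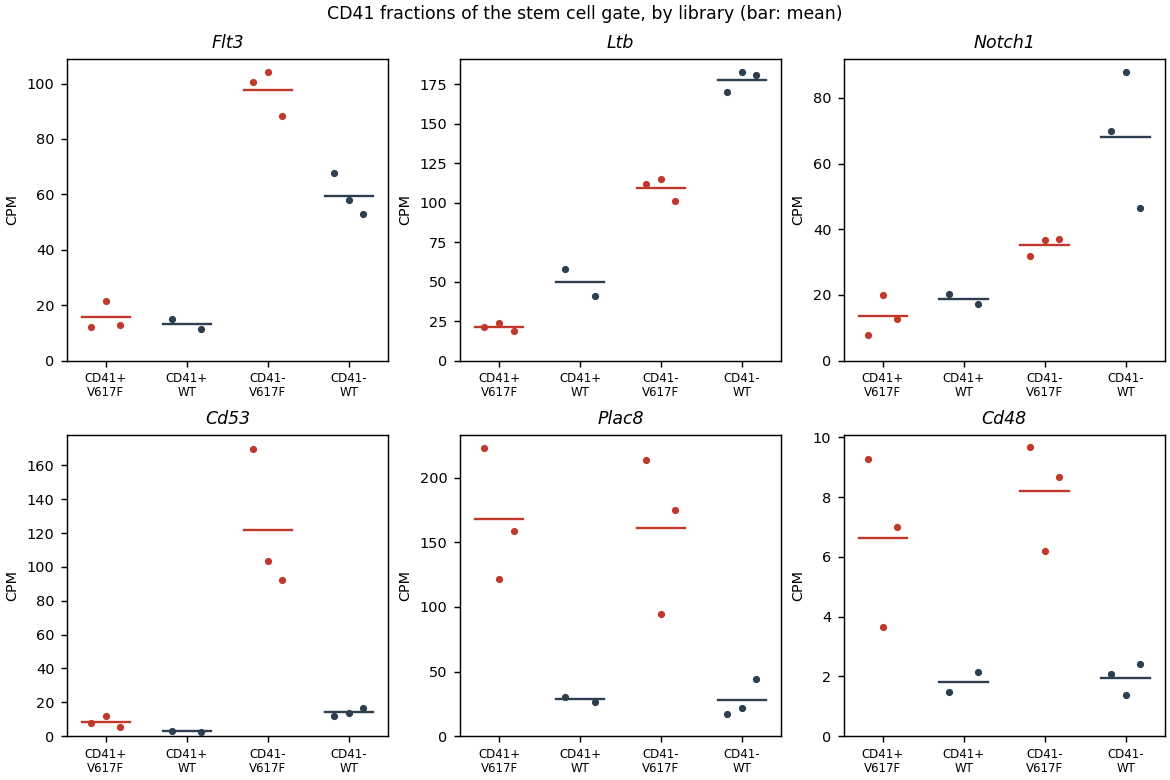
CPM, on linear axes from 0, of Flt3, Ltb, Notch1 and the progenitor genes Cd53, Plac8 and Cd48 in each library of the CD41 fractions, V617F in red left of WT in dark blue, with bars at group means. Ltb stands lower in V617F in both fractions, and Flt3 is higher in V617F in the CD41-negative fraction, where the V617F libraries lie between 88.3 and 104 CPM and the WT libraries between 52.7 and 67.7 CPM.

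In CD41-positive HSC, V617F went with less Ltb, and no other member passed. This 1 call of 8 stands beside 1.16% of all genes called, 0.221% higher and 0.94% lower. Ltb and Dntt, 2 of 8, did not overlap between genotypes, both lower, as did 41.7% of all genes, 23.9% higher and 17.8% lower. The median log2 fold change was -0.37 over the members and 0.03 over all genes. Ltb had 21.1, 23.9 and 18.5 CPM in V617F CD41-positive HSC, against 58.1 and 40.8 CPM in WT. The groups did not overlap, and the log2 fold change was -1.22 (SE 0.16, adjusted p = 0.00194). It stayed between -1.45 and -0.95 with adjusted p-values between 0.00248 and 0.0491 when any 1 library was left out.

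Dntt (Entrez 21673, chr19:41029275-41059525) was near the floor of 3 counts per library in V617F CD41-positive HSC, at 0.171, 0 and 0.141 CPM, 6 counts in all. It had 0.782 and 0.646 CPM in WT, 31 counts in all. The groups did not overlap and the unadjusted p was 0.0191, but the difference did not pass (log2 -2.74, SE 1.02, adjusted p = 0.313).

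Flt3 had 12.2, 21.7 and 12.9 CPM in V617F CD41-positive HSC and 15.0 and 11.5 CPM in WT, and Notch1 had 7.69, 20.1 and 12.6 CPM in V617F and 20.3 and 17.1 CPM in WT. Both overlapped between genotypes. Lsp1 (96.0 to 99.7 CPM in V617F, 88.5 to 97.4 CPM in WT), Ikzf1 (70.7 to 75.7 CPM in V617F, 73.2 to 74.7 CPM in WT) and Satb1 (1.5 to 2.84 CPM in V617F, 2.07 to 2.74 CPM in WT) overlapped too. Of the fixed lists, the progenitor genes Plac8 (log2 2.56, SE 0.43) and Cd48 (1.86, SE 0.41) were higher in V617F, 2 of 20 tested, and the Notch ligand gene Dll4 was lower (-2.49, SE 0.50), 1 of 28. No tested gene of the transcription factor, interleukin-7 receptor, V(D)J or TNF lists passed. Of 12 erythroid markers 5 were lower in V617F, of 8 tested macrophage markers 1 and of 11 tested granulocyte markers 1, and their part in the Ltb result was not tested.

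Whether the genotype effect differed between the fractions was tested as a difference of log2 fold changes. For Ltb it was -0.52 (SE 0.21, adjusted p = 0.566) and for Dntt -3.28 (SE 1.24, adjusted p = 0.566), and for Flt3 -0.47 (SE 0.30) and Notch1 0.48 (SE 0.43), so none of the members was shown to respond differently in the 2 fractions. No gene of 14467 passed this test with edgeR. At an unadjusted p under 0.05 there were 1274 genes, and DESeq2 called 6, none of them a member. The count rested on 1 library: without WT CD41-negative library 4 edgeR called 1766 genes, none of them a member, and 0 without any other single library.

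**Figure D3:**
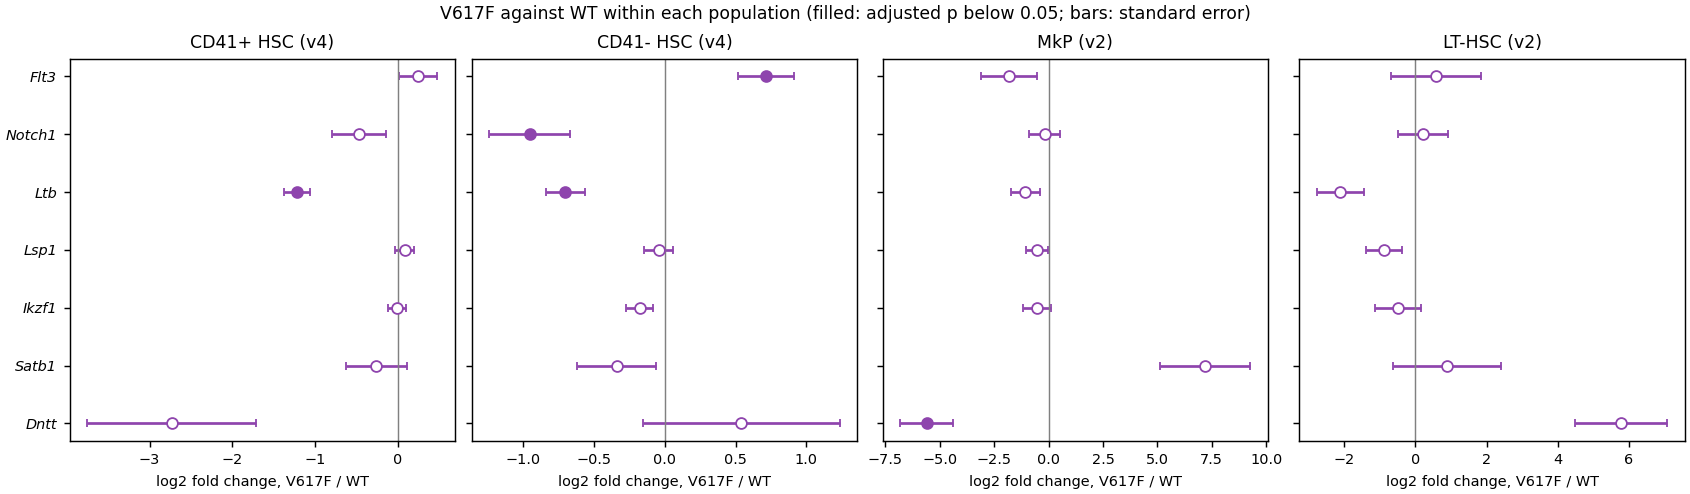
Log2 fold changes, V617F over WT, of the 7 members other than Il7r and Ccr9, in each population. Bars give the SE derived from the test's F statistic, and filled points an adjusted p below 0.05. Each panel has its own horizontal scale. Ltb lies left of 0 in all 4 populations and is filled in both CD41 fractions, and Dntt lies on opposite sides in MkP and LT-HSC.

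Between the fractions, most of the lymphoid priming genes tested were lower in CD41-positive than in CD41-negative HSC in both genotypes. In V617F cells 7 of 8 members tested were lower, and in WT cells 6 of 8, the exception between them being Dntt. Ccr9, which stood near the floor, was called in neither genotype and overlapped between the fractions in both. These stand beside 34.3% of all genes called in V617F, 16.4% higher and 17.9% lower, and 34% in WT, 15.7% higher and 18.2% lower. The called members were also those whose fractions did not overlap, as was so for 56.1% of all genes in V617F, 28.4% higher and 27.7% lower, and 56.8% in WT, 27.4% higher and 29.3% lower. The median log2 fold change of the members was -1.87 in V617F and -1.61 in WT, against -0.02 and -0.04 over all genes. No library left out changed the 6 calls that both genotypes share.

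Satb1 had 1.65, 2.84 and 1.5 CPM in V617F CD41-positive HSC, against the 11.8 to 16.3 CPM of V617F CD41-negative HSC (log2 -2.83, SE 0.32, adjusted p = 4.76e-05). In WT cells it had 2.74 and 2.07 CPM in the CD41-positive fraction, against 11.03 to 22.3 CPM in the CD41-negative one (log2 -2.91, SE 0.37, adjusted p = 0.000221). The fractions were far apart in both genotypes. Flt3 was lower in CD41-positive HSC by a log2 fold change of -2.64 (SE 0.21) in V617F and -2.17 (SE 0.24) in WT cells, and Ltb by -2.37 (SE 0.15) in V617F and -1.85 (SE 0.16) in WT cells.

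Notch1 was lower by -1.38 (SE 0.29) in V617F and -1.86 (SE 0.34) in WT cells. Lsp1 had 99.3, 99.7 and 96.0 CPM in V617F CD41-positive against 218 to 258 CPM in V617F CD41-negative HSC (log2 -1.25, SE 0.10), and 97.4 and 88.5 CPM against 232 to 248 CPM in the WT fractions (-1.37, SE 0.12). Ikzf1 moved least, by -0.42 (SE 0.10, adjusted p = 0.00553) in V617F and -0.59 (SE 0.11, adjusted p = 0.00261) in WT cells.

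Dntt had 2.41, 0.450 and 0.671 CPM in V617F CD41-negative HSC, 100 counts in all, above the 0 to 0.171 CPM of V617F CD41-positive HSC, and was called (log2 -3.47, SE 0.91, adjusted p = 0.0109). Without the first of these CD41-negative libraries, number 1, the value was -2.38 with an adjusted p of 0.0573. In WT cells Dntt had 0.782 and 0.646 CPM in the CD41-positive and 0.905, 0.274 and 1.26 CPM in the CD41-negative fraction, with overlapping ranges (adjusted p = 0.871).

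The lists around the members also held more lower than higher genes in the CD41-positive fraction, apart from the V(D)J list. List counts stand beside 34.3% of all genes called in V617F, 16.4% higher and 17.9% lower. In WT cells the shares were 34%, 15.7% higher and 18.2% lower. Of 20 tested progenitor genes, 11 were lower and none higher in V617F and 12 lower and none higher in WT cells. Cd53 (log2 -3.84, SE 0.30, in V617F and -2.31, SE 0.36, in WT) and Lax1 (-1.56, SE 0.19, and -1.28, SE 0.21), a lymphocyte adaptor gene, were among them. Of 15 tested genes around lymphotoxin and TNF, 7 were lower and none higher in each genotype, among them Tnfrsf13c (-1.90, SE 0.22, in V617F and -2.14, SE 0.27, in WT), the BAFF receptor gene, and Cd27 (-0.77, SE 0.13, and -1.08, SE 0.15).

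Of 28 tested Notch pathway genes, 8 were lower and 2 higher in V617F and 10 lower and 2 higher in WT CD41-positive HSC. The Fringe gene Lfng was lower (log2 -1.12, SE 0.22, in V617F and -1.34, SE 0.26, in WT), and Nrarp, a target and feedback inhibitor of Notch signalling, was higher (1.10, SE 0.22, and 1.78, SE 0.25). Of 13 tested genes of interleukin-7 receptor signalling, 6 were lower and 1 higher in V617F and 5 lower and 1 higher in WT. Il2rg, the receptor's common gamma chain, was lower (-1.57, SE 0.12, in V617F and -1.42, SE 0.14, in WT) and Bcl2 higher (1.40, SE 0.13, and 1.10, SE 0.14).

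Of 18 tested lymphoid transcription factors, 9 were lower and 2 higher in V617F and 7 lower and 2 higher in WT CD41-positive HSC. Gfi1, a repressor active in stem cells and lymphoid and granulocyte progenitors, was lower (log2 -4.66, SE 0.51, in V617F and -3.78, SE 0.57, in WT) and Mef2c, a factor of lymphoid progenitors and megakaryocytes, higher (1.38, SE 0.15, and 1.22, SE 0.16). In the V(D)J list 4 of 11 were higher and 1 lower in V617F and 3 higher and 1 lower in WT, with Hmgb2, a chromatin protein that aids RAG cleavage and is abundant in dividing cells, higher in both (1.60, SE 0.18, and 1.55, SE 0.19). Megakaryocyte progenitor markers were higher for 9 of 10 and lower for none in both genotypes, with summed levels of 2239 to 3141 CPM in V617F CD41-positive HSC against 1029 to 1070 CPM in V617F CD41-negative HSC. In WT cells they summed to 3053 to 3220 CPM in the CD41-positive and 1196 to 1466 CPM in the CD41-negative fraction, and their part in the members' differences was not tested. The list and its sums include Itga2b, the gene of CD41, so its direction was set by the sort.

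**Figure D4:**
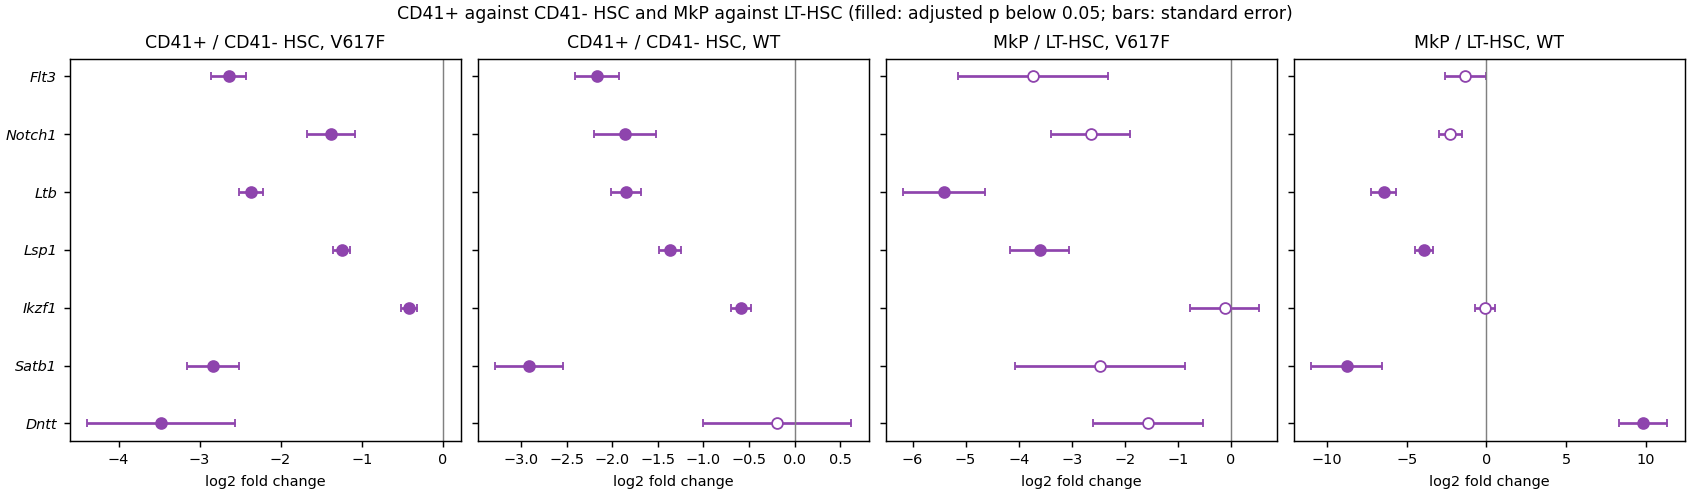
Log2 fold changes of the 7 members other than Il7r and Ccr9 for CD41-positive over CD41-negative HSC and for MkP over LT-HSC, within V617F and within WT cells. Bars give the SE derived from the test's F statistic, and filled points an adjusted p below 0.05. Each panel has its own horizontal scale. Between the fractions all points lie left of 0, and in WT cells Dntt is the member that is higher in MkP.

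In MkP, V617F went with less Dntt, and the other 7 members tested did not pass. This 1 call stands beside 1.75% of all genes called, 1.62% higher and 0.126% lower. Dntt on the lower and Satb1 on the higher side did not overlap between genotypes, as did 31% of all genes, 21% higher and 9.99% lower. The median log2 fold change was -0.54 over the members and 0.08 over all genes. Dntt had 0.258, 0.665 and 0.177 CPM in V617F MkP, 30 counts in all, against 26.5, 16.6 and 10.8 CPM in WT MkP, 2046 counts in all. The genotypes were far apart, with the V617F libraries near the floor (log2 -5.60, SE 1.22, adjusted p = 0.0403). The call was lost without WT library 30 (adjusted p = 0.0543) or without V617F library 1 (0.175), 2 (0.122, log2 -6.30) or 3 (0.157), and with no filter on low counts (0.0505).

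Other genes moved with Dntt between these libraries. The granulocyte list summed to 1168 to 2664 CPM in V617F MkP against 8455 to 12360 CPM in WT MkP, and Mpo, the neutrophil peroxidase gene, had 805, 663 and 1717 CPM in V617F against 9874, 5799 and 8636 CPM in WT (log2 -2.93, SE 0.62, adjusted p = 0.0367), the 1 of 14 called. The B cell list summed to 56.7 to 86.9 CPM in V617F and 144 to 156 CPM in WT, with none of its 9 tested genes called. Its surrogate light chain genes Vpreb1 (1.16, 1.33 and 1.06 CPM in V617F against 3.10, 8.33 and 7.02 CPM in WT) and Igll1 (0, 0.591 and 0.0886 CPM against 7.04, 28.4 and 8.33 CPM) stood lower in every V617F library, while Ms4a1, Pax5, Rag1, Rag2 and Fcrla were at 0 in all WT MkP libraries. Of 12 erythroid markers, Car1 (log2 -4.91, SE 0.88) and Ermap (-5.44, SE 1.21) were lower in V617F MkP, and the list summed to 1368 to 1729 CPM in V617F and 2297 to 2422 CPM in WT. Macrophage markers summed to 11.01 to 19.1 CPM in V617F and 23.1 to 104 CPM in WT, with none of 8 called. The part of these genes' source cells in the Dntt result was not tested.

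**Figure D5:**
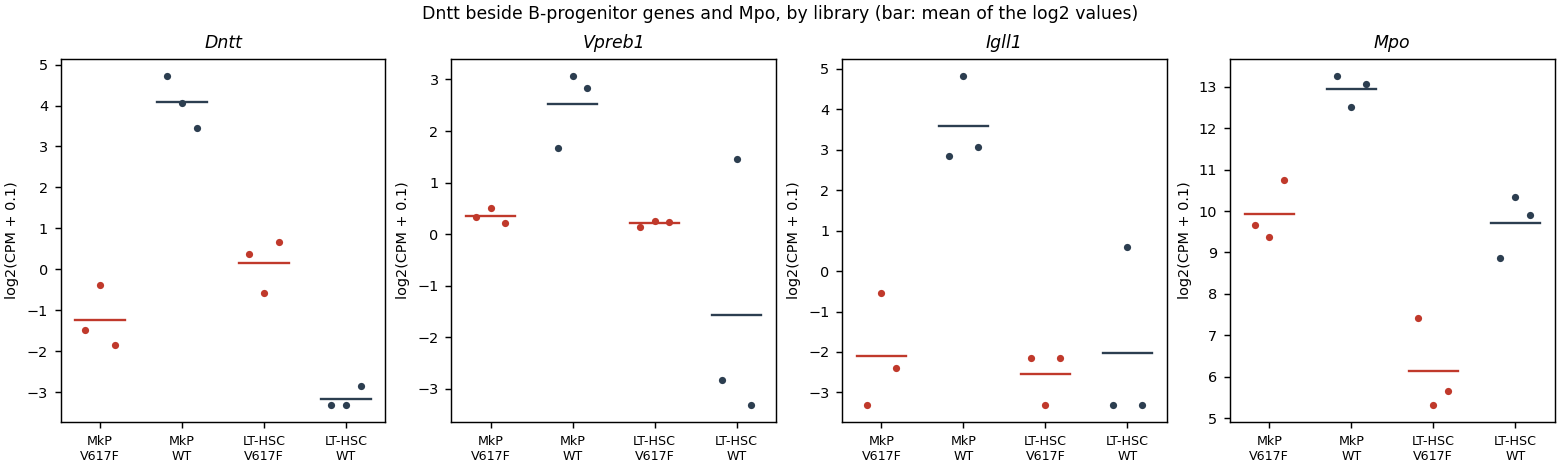
Dntt beside Vpreb1 and Igll1, genes of the pre-B cell surrogate light chain, and Mpo, a granulocyte progenitor gene, as log2(CPM + 0.1) in each MkP and LT-HSC library, V617F in red left of WT in dark blue, with bars at the mean of the log2 values. All 4 genes are highest in WT MkP, and Dntt is lowest in WT LT-HSC, where Mpo is at 469 to 1300 CPM.

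Satb1 had 0.473, 1.18 and 4.34 CPM in V617F MkP, 190 counts in all, against 0, 0 and 0.0327 CPM in WT MkP, a single count. The ratio of pooled counts was 249, with an exact 95% interval of 44.2 to 9890 that covers counting error only, and the difference did not pass with edgeR (adjusted p = 0.0975) but did with DESeq2 (0.00143). V617F library 3 held 147 of the 190 counts. The fitted log2 fold change was 7.19, 5.91 without that library and 8.99 without WT library 32, which holds the single WT count, and over the alternatives other than DESeq2 the adjusted p lay between 0.0636 and 0.232. Of the genes with a mean of at least 10 CPM over the v2 libraries, 0.0209 to 0.0836% were at 0 in a V617F MkP library and 1.22 to 4.20% in a WT MkP library. The stem cell genes Procr (0.502 to 0.850 CPM in V617F MkP, a single count in WT) and Fgd5 (1.81 to 2.54 CPM in V617F MkP, 0 in all WT libraries) were called higher in V617F MkP. The part of either in the Satb1 values was not tested.

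Flt3 had 5.67, 6.95 and 5.49 CPM in V617F MkP and 2.19, 60.7 and 0.816 CPM in WT, where 1 library was far above the other two. Ltb had 3.996, 5.03 and 6.02 CPM in V617F MkP and 2.72, 21.4 and 7.35 CPM in WT. Notch1 (5.08 to 6.19 CPM in V617F, 1.47 to 9.20 CPM in WT), Lsp1 (31.2 to 43.1 CPM in V617F, 35.8 to 84.8 CPM in WT) and Ikzf1 (77.9 to 115 CPM in V617F, 62.7 to 217 CPM in WT) overlapped as well, with WT the wider group for each. No gene of the transcription factor, interleukin-7 receptor, Notch, V(D)J or TNF lists was called in this comparison, and of the progenitor list Lax1 was higher in V617F MkP, being at 0 in all WT MkP libraries.

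In LT-HSC, no member passed the test between genotypes, beside 0.063% of all genes called, 0.028% higher and 0.035% lower. Dntt on the higher and Ltb on the lower side did not overlap between genotypes, as did 19.2% of all genes, 13.6% higher and 5.63% lower. At an unadjusted p under 0.05 there were 2 members, Ltb and Dntt, and DESeq2 called both. The median log2 fold change was -0.15 over the members and -0.05 over all genes. Ltb had 239, 238 and 162 CPM in V617F LT-HSC, against 1611, 780 and 376.5 CPM in WT. Every V617F library was below every WT library, but the WT libraries were widely spread, and the log2 fold change of -2.12 (SE 0.66) had an adjusted p of 0.202 with edgeR and 0.0352 with DESeq2.

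Dntt had 1.20, 0.572 and 1.5 CPM in V617F LT-HSC, 76 counts in all, against 0, 0 and 0.0398 CPM in WT, 2 counts. The ratio of pooled counts was 62.1, with an exact 95% counting interval of 16.6 to 522, and the adjusted p was 0.149 with edgeR and 0.000713 with DESeq2. The direction was opposite to that in MkP.

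Flt3 had 76.9, 30.03 and 133 CPM in V617F LT-HSC and 6.06, 113 and 41.0 CPM in WT, and the genotypes overlapped. So did Notch1 (33.6 to 38.2 CPM in V617F, 12.2 to 45.8 CPM in WT), Lsp1 (281 to 568 CPM in V617F, 411 to 1483 CPM in WT), Ikzf1 (48.8 to 145 CPM in V617F, 35.4 to 275 CPM in WT) and Satb1 (9.53 to 12.4 CPM in V617F, 0 to 10.8 CPM in WT). The WT library of number 30 had the highest Ltb and Lsp1 and the lowest Flt3, Notch1 and Ikzf1 of its group and was the one with Satb1 at 0. This library also had the highest T and NK cell sum (1217 CPM, against 303 and 245 in its companions) and B cell sum (394 against 78.8 and 118). Its erythroid (6908 against 1697 and 3361) and granulocyte sums (6937 against 3776 and 4904) were highest too. Its stem cell gate markers summed to 1650 CPM, against 4585 and 3967 in the companions. The part of these sums in its values was not tested. None of the transcription factor, interleukin-7 receptor, Notch, V(D)J, TNF and progenitor lists had a gene called between genotypes in LT-HSC. Of 12 erythroid markers 1 was called, Car1, at 0.207, 0.727 and 0.250 CPM in V617F and 62.7, 10.5 and 24.6 CPM in WT (log2 -6.38, SE 0.98, adjusted p = 0.0376), and the list summed to 1890 to 3219 CPM in V617F and 1697 to 6908 CPM in WT. The granulocyte list summed to 480 to 1193 CPM in V617F and 3776 to 6937 CPM in WT, the B cell list to 54.7 to 110 CPM in V617F and 78.8 to 394 CPM in WT and the T and NK cell list to 183 to 298 CPM in V617F and 245 to 1217 CPM in WT, and the part of these lists in the Ltb and Dntt values was not tested.

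The genotype effect on Dntt differed between MkP and LT-HSC, with a difference of log2 fold changes of -11.39 (SE 1.77, adjusted p = 0.0153), beside 0.455% of all genes called, 0.427% higher and 0.028% lower. Since the V617F LT-HSC libraries were all male and the other 3 groups all female, genotype and sex cannot be told apart in this difference. It was not called when any 1 of the 3 V617F libraries of either population was left out, with adjusted p-values up to 0.0979, and moved to -13.6 without WT LT-HSC library 32, which holds that group's counts, and to -12.1 without V617F MkP library 2. Satb1 came next among the members (difference 6.31, SE 2.44, unadjusted p = 0.0232, adjusted p = 0.454).

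Between MkP and LT-HSC, Ltb and Lsp1 were lower in MkP in both genotypes. In V617F cells these were the 2 of 8 members that passed, beside 1.09% of all genes called, 0.378% higher and 0.714% lower. In WT cells Satb1 was also lower and Dntt higher, 4 of 8, beside 8.9% of all genes called, 2.32% higher and 6.58% lower. Ranges did not overlap for 5 members in V617F, all lower, as for 41.4% of all genes, 17% higher and 24.5% lower. In WT they did not overlap for 4, 1 higher and 3 lower, as for 20.5% of all genes, 8.39% higher and 12.1% lower. The median log2 fold change of the members was -2.56 in V617F and -3.10 in WT cells, against -0.06 and -0.20 over all genes.

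Ltb had 3.996 to 6.02 CPM in V617F MkP against 162 to 239 CPM in V617F LT-HSC (log2 -5.41, SE 0.77, adjusted p = 0.00521), and 2.72 to 21.4 CPM in WT MkP against 376.5 to 1611 CPM in WT LT-HSC (-6.46, SE 0.80, adjusted p = 0.000773). Lsp1 had 31.2 to 43.1 CPM in V617F MkP against 281 to 568 CPM in V617F LT-HSC (-3.61, SE 0.55, adjusted p = 0.00827), and 35.8 to 84.8 CPM in WT MkP against 411 to 1483 CPM in WT LT-HSC (-3.94, SE 0.56, adjusted p = 0.00171). The populations were far apart for both genes in both genotypes. In V617F cells the Ltb call was lost without MkP library 1 (adjusted p = 0.0616) or 2 (0.0541) and the Lsp1 call without MkP library 1 (0.108), 2 (0.0940) or 3 (0.0548).

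In WT cells, Dntt had 2046 counts in MkP against 2 in LT-HSC, a ratio of 1020 with an exact 95% counting interval of 282 to 8430 (adjusted p = 0.00245). Satb1 had 1 count in WT MkP against 802 in WT LT-HSC, where 1 library was at 0 so that the groups overlapped, a ratio of 0.00124 with an interval of 3.15e-05 to 0.00695 (adjusted p = 0.0304), and its call was lost without any 1 WT MkP library (adjusted p between 0.0528 and 0.068). The fits shared the spread of all v2 groups. Fitted on the WT groups alone, Satb1 did not pass the filter on low counts and was not tested. None of the members tested in that fit passed, with Ltb at an adjusted p of 0.0607, Lsp1 at 0.0688 and Dntt at 0.0818. In V617F cells the same restriction called 5 members, all lower, adding Flt3, Satb1 and Notch1. Without single WT libraries the log2 fold change of Ltb moved to -5.77 (LT-HSC 30) and -7.59 (MkP 31), that of Lsp1 to -3.15 (LT-HSC 30) and -4.55 (MkP 32), that of Dntt to 12.0 (LT-HSC 32) and that of Satb1 to -9.38 (LT-HSC 30), -8.00 (LT-HSC 32) and -10.5 (MkP 32).

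Notch1 had 5.08 to 6.19 CPM in V617F MkP against 33.6 to 38.2 CPM in V617F LT-HSC, without overlap, and missed the threshold (log2 -2.65, SE 0.75, adjusted p = 0.164), as it did in WT cells (-2.26, SE 0.73, adjusted p = 0.0727), where it passed without LT-HSC library 30 (-2.64, adjusted p = 0.0339). Flt3 had 5.49 to 6.95 CPM in V617F MkP against 30.03 to 133 CPM in V617F LT-HSC, without overlap (log2 -3.73, SE 1.41, adjusted p = 0.326). In WT cells its adjusted p was 0.558, and 0.0232 without MkP library 31 (log2 -5.12). Ikzf1 stood at 93.4 ± 18.9 CPM in V617F MkP and 102 ± 48.9 CPM in V617F LT-HSC, and at 136 ± 77.5 CPM in WT MkP and 144 ± 122 CPM in WT LT-HSC (SD, n = 3 each). Its level overlapped among all 4 groups. List counts between these populations stand beside 1.09% of all genes called in V617F and 8.9% in WT cells. Of 18 tested lymphoid transcription factors, 2 were higher and 1 lower in V617F MkP and 2 higher and 2 lower in WT MkP. Gata3, a factor of T and innate lymphoid cells, was lower in both (log2 -2.26, SE 0.33, in V617F and -2.58, SE 0.33, in WT), Mef2c (1.83, SE 0.35, and 2.12, SE 0.35) and Runx3 (1.68, SE 0.35, and 1.27, SE 0.35) were higher in both, and Spi1, the gene of PU.1, a myeloid and lymphoid factor, was lower in WT (-2.01, SE 0.41).

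Of 13 tested interleukin-7 receptor genes, Bcl2 was higher in V617F MkP (log2 1.75, SE 0.38) and none lower, while Il2rg (-3.68, SE 0.67) and Jak3 (-2.19, SE 0.61) were lower in WT MkP and none higher. Whether these effects differ between genotypes is not shown by one call and one miss. Of 27 tested Notch pathway genes none was called in V617F and 3 were lower in WT, Mfng (-1.85, SE 0.35), Numbl and Notch3, the last pair at 0 in all WT MkP libraries. Of 21 tested progenitor genes 1 was higher and 4 lower in each genotype, with Cd48 higher (3.23, SE 0.63, in V617F and 2.68, SE 0.61, in WT) and Lax1 lower (-4.49, SE 0.66, in V617F, and at 0 in all WT MkP libraries). The HSC gate excluded CD48 and the MkP gate as described did not, so the Cd48 difference is not independent of the sort. No gene of the V(D)J or TNF lists was called. Megakaryocyte markers were higher for 5 of 10 in V617F and 7 of 10 in WT MkP and lower for none. Granulocyte markers were higher for 2 of 14 and lower for none in V617F, and higher for 2 and lower for 2 in WT. Stem cell gate markers were higher for 2 of 10 and lower for 3 in V617F, and higher for 2 and lower for 4 in WT. Their part in the members' differences was not tested. These lists include genes of the gated antigens, Itga2b (CD41) in both the megakaryocyte and gate lists, and Ly6a (Sca-1) and Cd48 in the gate list. The directions of these genes are not independent of the sort.

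Il7r (Entrez 16197, chr15:9506159-9529941) was barely detected in any population. Over all 23 libraries it had 26 counts, in 6 libraries, and 3 libraries held more than 3 counts. The highest was 0.319 CPM, in a WT CD41-negative library, and all V617F CD41-positive, V617F LT-HSC, WT LT-HSC and WT MkP libraries were at 0. A library at 0 allows up to 0.0597 to 0.171 CPM, depending on its depth. Ccr9 (Entrez 12769, chr9:123767211-123783457) had 162 counts in 13 of 23 libraries, at most 1.76 CPM in a WT LT-HSC library whose 2 companions were at 0, and all WT MkP libraries were at 0. A difference between groups was not detectable for either gene at these counts.

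The genes whose profile over libraries was nearest to each member were found by the root mean square (RMS) difference of centred log2 CPM. Over the 11 libraries of the CD41 fractions these were Osgin1 (RMS 0.182), Cd82 (0.201) and Pcp4l1 (0.252) for Ltb, Mgst1 (0.216), Gm973 (0.230) and Apobr (0.279) for Flt3, and Ralgds (0.208), Apbb1 (0.212) and Rrad (0.226) for Notch1. They were Ctsh (0.263), Zfp831 (0.289) and Ahnak (0.305) for Satb1, Fam129a (0.119), Stxbp4 (0.122) and H2-Oa (0.148) for Lsp1, and Cd37 (0.0854) and Hoxa7 (0.107) for Ikzf1. The members' own RMS spread about their mean was 1.22 for Ltb, 1.25 for Flt3, 0.998 for Notch1, 1.45 for Satb1, 0.650 for Lsp1 and 0.266 for Ikzf1. Over the 12 libraries of LT-HSC and MkP the nearest were Ebi3 (1.04), H2-Eb1 (1.25) and Gbp8 (1.29) for Ltb, whose own spread was 3.18, and Il2rg (0.412), Ldhb (0.420) and Camk2a (0.439) for Lsp1, whose own spread was 1.94. These are descriptions over libraries that share groups.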

How the data were processed

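The authors deposited whole-number read counts per gene (24454 Entrez identifiers) with a gene length for 23 libraries. Per the submitters' processing notes, STAR 2.5.2a, R 3.4.2, limma and mm10 were used (counter and annotation: not given in the sources used here). Totals were 17.6 to 49.2 M counts. With R 4.3.3 and edgeR 4.0.16, a separate model was fitted per protocol (TMM, filterByExpr, 1 mean per group, quasi-likelihood test, Benjamini-Hochberg over all genes within each of 10 contrasts, threshold 0.05); the filter ended with 14281 genes kept for v2 and 14467 for v4. Code was tested on simulated counts. The members, lists and alternatives were chosen with earlier results of these data known. Named are all members, per list up to 4 called genes with the smallest adjusted p where their values bear on the comparison, and per member the 3 nearest profiles with a mean of at least 10 CPM, apart from items that are not reported here. Igll1, Vpreb1 and list members at 0 were named after their values were seen. No libraries were duplicates. V617F CD41-fraction libraries of equal number deviated together (r = 0.301, 0.419 and 0.298 across genes), so the numbers were taken to pair them. WT libraries of equal number showed little of this (r = 0.0429 and 0.0242), and the replicate block used the numbers of both genotypes. The main fit did not use the pairing, so the V617F values of the CD41 fractions are not independent. Alternatives were DESeq2 1.42.0, its size factors' RLE scaling in edgeR, no filter and only the groups compared. Others were the replicate block, no male libraries and each library left out. Coordinates and promoters are RefSeq's on GRCm38.p6, the assembly named mm10. Floors and intervals cover counting error only.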

Additional observations from a re-analysis of the deposited data

Results flagged for a closer look

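The V617F effect on Dntt differed between MkP and LT-HSC by a test of the difference itself (difference of log2 fold changes -11.4, adjusted p = 0.0153 by edgeR's quasi-likelihood test). Dntt was lower in all 3 V617F MkP libraries than in all 3 WT MkP libraries and higher in all 3 V617F LT-HSC libraries than in all 3 WT LT-HSC libraries. WT LT-HSC held 2 Dntt counts in all, and the genotype comparison within LT-HSC was not itself called by edgeR (adjusted p = 0.149). The call for the difference was lost when any 1 of the V617F libraries was left out, with adjusted p-values up to 0.0979. The V617F LT-HSC libraries were all male and the other 3 groups all female, so genotype and sex cannot be told apart in this difference.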

How the results depend on the processing

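Alternatives that changed how many members were called were as follows. DESeq2 called 2 members between genotypes in LT-HSC, 2 in MkP, 4 between V617F MkP and V617F LT-HSC and 5 between WT MkP and WT LT-HSC. Without the filter on low counts 0 were called between genotypes in MkP. With only the groups compared in the fit, 0 were called between WT MkP and WT LT-HSC, 5 between V617F MkP and V617F LT-HSC and 2 between genotypes in CD41-negative HSC. Satb1 fell to the filter on low counts and was not tested in this WT fit or in the WT fit with the replicate block. Without the male libraries 1 was called between genotypes in CD41-negative HSC. With the replicate block 0 were called between WT MkP and WT LT-HSC, whose numbers did not pair the libraries (r between -0.0328 and 0.0231); the block changed no member's call between the CD41 fractions. Leaving out 1 library at a time gave 0 to 1 members called between genotypes in MkP, 0 to 3 in CD41-negative HSC, 0 to 2 between V617F MkP and LT-HSC, 3 to 5 between WT MkP and LT-HSC, 6 to 7 between V617F CD41 fractions, and 0 to 1 for the difference of genotype effects between MkP and LT-HSC. The cause of these changes was not tested.

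Log2 fold changes that changed sign all belonged to members that were not called. With 1 library left out they ranged, between genotypes in LT-HSC, from -0.161 to 0.59 for Notch1 and -0.931 to 0.383 for Ikzf1; in MkP, from -2.32 to 2.03 for Flt3, -1.46 to 0.033 for Ltb, -0.728 to 0.0231 for Lsp1, -0.602 to 0.197 for Notch1 and -0.833 to 0.0054 for Ikzf1. In CD41-negative HSC they ranged from -0.54 to 1.01 for Dntt and -0.135 to 0.00346 for Lsp1, and in CD41-positive HSC from -0.0693 to 0.443 for Flt3 and -0.0336 to 0.0149 for Ikzf1. For Ikzf1 between MkP and LT-HSC they ranged from -0.459 to 0.257 in V617F and -0.58 to 0.8 in WT cells, and for Dntt between WT CD41 fractions from -0.601 to 0.267. Without the male libraries, Lsp1 was at 0.00365 in CD41-negative HSC, and Flt3 at -0.0694 and Ikzf1 at 0.015 in CD41-positive HSC. With the replicate block, Dntt was at 0.0426 between WT CD41 fractions and Ikzf1 at 0.12 between WT MkP and LT-HSC.

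Counts of all genes called depended on the fit in most comparisons. Over the alternatives other than single omissions they lay between 269 and 3527 in CD41-negative HSC (1941 as reported), 173 and 520 in CD41-positive HSC (168), 202 and 1137 in MkP (250) and 0 and 488 in LT-HSC (9) between genotypes. They lay between 150 and 2972 (156) for V617F and 6 and 2803 (1271) for WT MkP against LT-HSC, and between 3333 and 6572 (4960) for V617F and 2028 and 5552 (4917) for WT CD41 fractions. The differences of genotype effects gave 51 to 523 (65) for MkP and LT-HSC and 0 to 6 (0) for the CD41 fractions. The 3527 between genotypes in CD41-negative HSC came from the replicate block, whose numbers were not shown to pair libraries of different genotypes. The next highest count there was 3380, with DESeq2. With 1 library left out, the counts between genotypes lay between 282 and 6021 in CD41-negative HSC, 32 and 170 in CD41-positive HSC, 46 and 415 in MkP and 0 and 23 in LT-HSC. They lay between 31 and 52 for V617F and 1001 and 1818 for WT MkP against LT-HSC, 3380 and 4721 for V617F and 1215 and 7082 for WT CD41 fractions, and 0 and 219 (MkP and LT-HSC) and 0 and 1766 (CD41 fractions) for the differences of genotype effects. Low counts limit Il7r, Ccr9 and, outside WT MkP, Dntt, whose counts were at or near 3 per library in several groups. They also limit Satb1 in WT MkP, which held a single count. WT LT-HSC and WT MkP libraries held 30.93 to 49.19 M counts, and V617F LT-HSC and V617F MkP libraries 17.62 to 33.85 M. The part of depth in these low counts was not tested.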
